A study of Arabidopsis thaliana with 8 samples.

Results

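The genes described here are 8 loci of seed oil assembly and fatty acid modification in Arabidopsis thaliana, taken by name from a deposited table of 34759 loci: FAE1 (AT4G34520), SUS2 (AT5G49190), DGAT1 (AT2G19450), DGAT2 (AT3G51520), PDAT1 (AT5G13640), FAD2 (AT3G12120), FAD3 (AT2G29980) and ROD1 (AT3G15820). All 8 had a row of their own and a usable value in each of the 8 libraries. RNA sequencing compared wild-type plants of the Col-0 accession (wt) with clf-28, an insertion mutant of CURLY LEAF (CLF) in the same accession. CLF encodes a histone methyltransferase of the Polycomb system, which keeps developmental genes silent outside their proper tissue. Each genotype gave 1 library of roots, 1 of leaves (harvested as the aerial part), 1 of flowers and 1 of siliques. Roots and aerial parts were from plants aged 2 weeks on culture plates, and flowers and siliques from plants aged 5 weeks in soil. All grew in long days at 22 °C. No group has a replicate, and the age of the siliques was not given in the sources used here.

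Oil in Arabidopsis seeds is triacylglycerol, laid down in the embryo while the seed matures and burned by the seedling. Sucrose arriving in the seed is split by sucrose synthases such as SUS2 and feeds fatty acid synthesis in the plastid. Fatty acids then pass through phosphatidylcholine, where the desaturase FAD2 turns oleic into linoleic acid and FAD3 turns linoleic into linolenic acid. ROD1 moves the headgroup between phosphatidylcholine and diacylglycerol, so that desaturated chains reach the oil. FAE1 elongates oleic acid to the very long chains that mark the oil of this family of plants. The last acyl chain is added by DGAT1, DGAT2 or PDAT1, the first 2 from acyl-CoA and the last from a phospholipid. FAE1 and SUS2 are known as seed genes, whereas FAD2, FAD3 and the acyltransferases also serve membrane lipids in other organs.

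Values are FPKM, fragment counts scaled to transcript length and to the mapped fragments of the library, each with the interval that the authors' program gave. Sums of FPKM ran from 656178 to 715547 over the libraries, the number of reads is unknown, and the intervals were wide. The 5 anther and pollen markers summed to 2103 FPKM (wt) and 1340 FPKM (clf-28) in the flower libraries, and to at most 25.1 elsewhere. The 5 root markers usable in all libraries summed to 671 and 432 FPKM in the root libraries and to at most 18.1 elsewhere. The sixth root marker, PYK10, went against this: it had too many reads in both root libraries and stood at 208 FPKM (wt) and 158 FPKM (clf-28) in leaves. Storage and oil body markers of the seed, 5 of which were usable in all libraries, summed to 28.7 FPKM in wt roots, above the 8.19 in wt siliques. CLF itself stood between 5.50 and 17.2 FPKM over the 8 libraries. For CLF the authors' intervals of the genotypes overlapped in each of the organs, so the gene-level value does not check the mutant label. In siliques of clf-28, 6 of 11 storage protein and oil body markers were listed at 0 because they had too many reads to be quantified, so that such a 0 is not a low value.

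The sequences upstream of the members were read from the TAIR10.1 genome at the starts that RefSeq annotates. They are shown for 4 of the 5 genes at least 2-fold higher in clf-28 siliques, since seed maturation regulators bind short motifs in such regions. The windows of SUS2 and of the gene not shown, DGAT1, held none of the motifs searched. FAE1 lies on chromosome 4 (16494205 to 16495842, plus strand) and is 1 exon whose annotated start is also its first coding base. SUS2 lies on chromosome 5 (19943181 to 19947588, minus strand) and has 14 or 15 exons, FAD3 on chromosome 2 (12781524 to 12785190, minus strand) with 7 or 8, and ROD1 on chromosome 3 (5350814 to 5353752, plus strand) with 3. The 250 bases before each start are chr4:16493955-16494204 for FAE1, chr5:19947589-19947838 (minus strand) for SUS2, chr2:12785191-12785440 (minus strand) for FAD3 and chr3:5350564-5350813 for ROD1, each printed 5′ to 3′ along the gene. Capitals mark CATGCA, the RY motif bound by seed regulators of the ABI3 family, and ACGTG, the core of motifs bound by bZIP factors, both searched on either strand.
FAE1: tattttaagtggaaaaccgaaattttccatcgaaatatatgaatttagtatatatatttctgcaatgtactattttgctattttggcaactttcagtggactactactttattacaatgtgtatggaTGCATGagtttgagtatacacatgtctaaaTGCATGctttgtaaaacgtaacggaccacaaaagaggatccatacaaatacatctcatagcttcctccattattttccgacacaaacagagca
SUS2: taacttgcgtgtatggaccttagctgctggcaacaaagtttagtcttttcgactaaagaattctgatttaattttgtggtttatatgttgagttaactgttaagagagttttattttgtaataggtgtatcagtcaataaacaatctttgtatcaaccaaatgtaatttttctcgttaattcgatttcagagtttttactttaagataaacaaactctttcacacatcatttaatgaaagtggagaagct
FAD3: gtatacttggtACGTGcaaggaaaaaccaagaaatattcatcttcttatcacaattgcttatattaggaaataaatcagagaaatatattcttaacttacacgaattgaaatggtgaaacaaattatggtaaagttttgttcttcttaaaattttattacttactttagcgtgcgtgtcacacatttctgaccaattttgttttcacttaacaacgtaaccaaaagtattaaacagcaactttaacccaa
ROD1: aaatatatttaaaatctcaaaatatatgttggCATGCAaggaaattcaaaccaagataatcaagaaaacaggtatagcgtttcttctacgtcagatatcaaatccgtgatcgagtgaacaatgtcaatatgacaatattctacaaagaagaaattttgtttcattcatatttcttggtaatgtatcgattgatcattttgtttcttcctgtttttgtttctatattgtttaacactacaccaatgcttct
FAE1 holds CATGCA at 2 places, which start 123 and 93 bases before the gene, and ROD1 holds it at 1 place, 218 bases before. In the windows of all 27443 protein-coding genes the motif is found in 8.43%. ACGTG is found in 22.9% of all windows and among the members in FAD3, 239 bases before the start, and in FAD2, 35 bases before. The G-box CACGTG, which contains ACGTG, is in 6.49% of all windows and in 0 of the 8 members. The AW-box, a degenerate motif of the oil regulator WRI1, is in 9.3% of all windows and in 0 of the 8. These are matches of letters in a short window, and none was tested for binding. The SUS2 window holds neither motif in capitals.

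In siliques, 5 of the 8 genes were at least 2-fold higher in clf-28 and 0 were at least 2-fold lower. Over all 20892 genes measured in siliques, 11.4% were at least 2-fold higher and 8% at least 2-fold lower. The members were chosen with earlier results of these data known, so their count beside these shares is a description. A gene was measured when its value was usable in both libraries and reached 1 FPKM in at least 1 of them, and ratios are log2(FPKM + 1) in clf-28 minus that in wt. The median log2 ratio of the 8 genes was 1.37 in siliques, against -0.01 for all measured genes. In the other organs the median of the measured members was close to 0: -0.13 for 7 genes in roots, 0.03 for 7 in leaves and 0.04 for 6 in flowers. FAE1 was not measured in those organs and SUS2 not in flowers. Each organ has a single pair of libraries, which allows no test of the genotypes inside it.

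**Figure D1:**
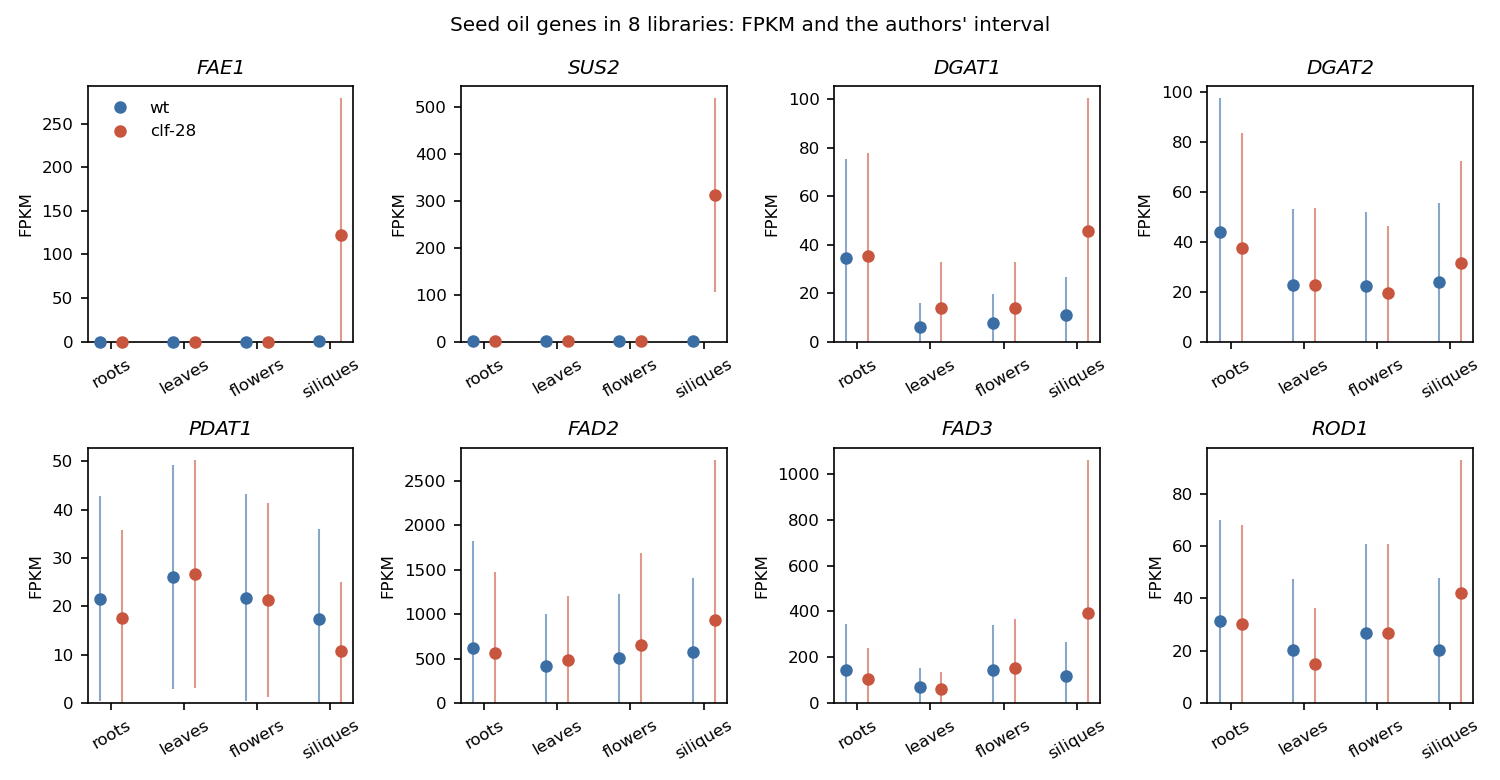
FPKM of each seed oil gene (vertical axes, linear, one scale per gene) in roots, leaves, flowers and siliques of wt (blue) and clf-28 (red); points are single libraries and lines the authors' intervals. FAE1 and SUS2 stand at 122 and 312 FPKM in clf-28 siliques and at most at 1.39 FPKM in any other library.

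FAE1, the elongase of seed oil, was found mainly in the clf-28 silique library in these data. It was listed at 0 FPKM in wt roots, clf-28 roots and clf-28 leaves. It stood at 0.0034 in wt leaves, 0.0065 in wt flowers and 0.023 in flowers of clf-28. In siliques it was at 0.33 FPKM in wt (authors' interval 0 to 1.24) and at 122 in clf-28 (0 to 279). Only the clf-28 silique library was above 1 FPKM, and the log2 ratio in siliques was 6.53. The intervals of the pair overlap, because the lower bound in clf-28 is 0.

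SUS2 and FAE1 had the largest ratios of the 8, in an order that depends on the pseudocount: with 0.1 in place of 1 they stood at 7.83 and 8.15. For the wild type and then the mutant, its FPKM was 1.39 and 1.22 for roots, 0.87 and 1.05 for leaves, and 0.71 and 0.85 for flowers. In siliques it was 1.27 in wt (0 to 3.70) and 312 in clf-28 (105 to 519), a log2 ratio of 7.11. The 7 other libraries lie within a narrow low range, and the clf-28 silique library stands far above them. SUS2 was the single member whose intervals were separate between genotypes in any organ. Separate intervals were found for 0.201% of the genes measured in siliques (42 genes), 0.0355% in roots, 0.054% in leaves and 0.0191% in flowers. In clf-28 siliques SUS2 ranked 231st by FPKM in the library and FAE1 897th.

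Whether the difference between genotypes in siliques departed from that in the other organs was tested in limma across 24078 genes, with organ as a block and 2 residual degrees of freedom. At an unadjusted p under 0.05, 21.7% of all genes differed. SUS2 differed by 7.06 on the log2 scale (SE 0.21, adjusted p = 0.00377 in limma). For FAE1 the difference was 6.53, which is given as a description: FAE1 passed the filter on low values only through clf-28 siliques, and lies between 0 and 0.023 FPKM in the 6 libraries that set the spread, so its p carries no information. With FAE1 counted, 2 of the 8 members passed as higher and 0 as lower, where 4.11% of all tested genes passed as higher and 2.88% as lower. FAD3 was near the threshold at 1.93 (SE 0.29, adjusted p = 0.0507 in limma), and lay on either side of it under the alternatives. Adjusted p in limma was 0.042 with libraries rescaled by the median of ratios, 0.0456 with quantile scaling and 0.0497 with a pseudocount of 5. It was 0.0523 without a trend, 0.0639 with a pseudocount of 0.1, 0.0742 without a filter and 0.0905 to 0.186 with an organ left out. Differences of 1.17 for ROD1, 1.31 for DGAT1, 0.54 for DGAT2, 0.56 for FAD2 and -0.54 for PDAT1 did not pass (adjusted p = 0.087, 0.248, 0.205, 0.571 and 0.251 in limma). The spread in this test is that of roots, leaves and flowers, where SUS2 lies between 0.71 and 1.39 FPKM, so the variation between silique samples is not in it. Of the 1682 called genes, 42.4% were under 1 FPKM in all 6 libraries of those organs. Under 2 FPKM in all 6, as SUS2 was, were 837 of the called genes, so the p of SUS2 also rests on low values. Leaving out an organ leaves 1 residual degree of freedom: the call of SUS2 was kept without roots (adjusted p = 0.0448 in limma) and lost without leaves (adjusted p = 0.0673 in limma) and without flowers (adjusted p = 0.0625 in limma), where 0 of all genes passed. The differences themselves stayed between 6.52 and 7.10.

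**Figure D2:**
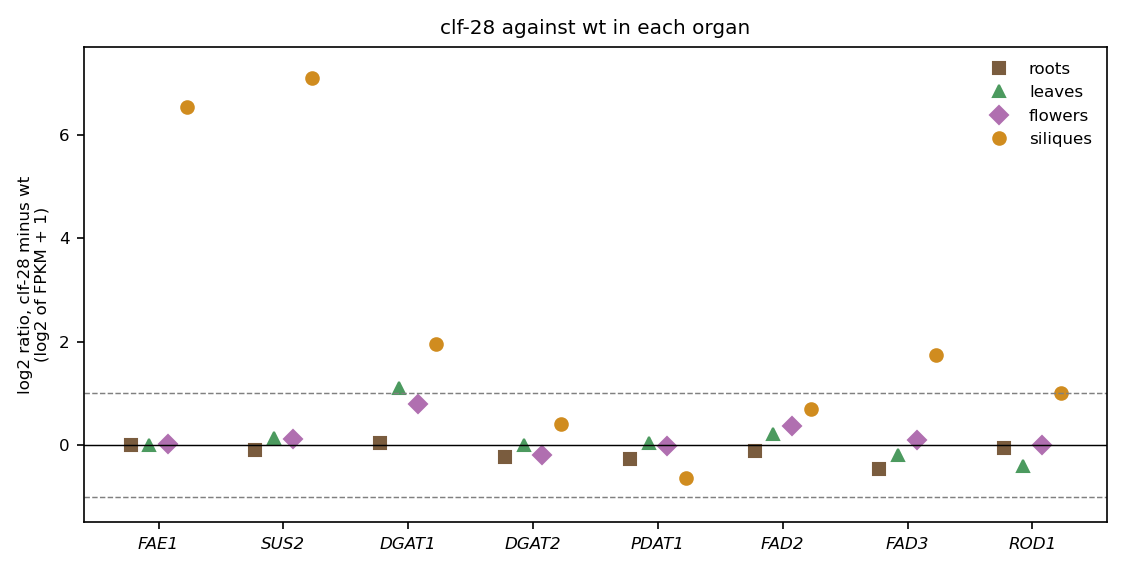
Log2 ratio of clf-28 to wt (vertical axis, on log2 of FPKM + 1) for the 8 genes in roots (squares), leaves (triangles), flowers (diamonds) and siliques (circles), 1 pair of libraries each; dashed lines mark 2-fold. In siliques 7 of the 8 points are above 0 and PDAT1 is at -0.63.

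The relatives of FAE1 and SUS2 show how far these values extend in their families. FAE1 belongs to the ketoacyl-CoA synthases, most of which make the very long chains of surface wax, cutin and membrane lipids. Over all genes measured in siliques, 11.4% were at least 2-fold higher in clf-28 and 8% lower. Of 19 relatives with a row of their own, 17 were measured in siliques, with a median log2 ratio of -0.20. Of these, 4 were at least 2-fold higher and 4 at least 2-fold lower in clf-28. The 4 higher were KCS16, from 0.080 to 26.7 FPKM, KCS17, from 0.29 to 16.5, KCS19, from 40.5 to 107, and KCS7, from 0.20 to 1.96. KCS17 is the gene next to FAE1 on chromosome 4, with 442 bases and no other coding gene between them, and KCS16 lies 97501 bases away with 30 coding genes between. Unlike FAE1, KCS17 was present in flowers (wt 20.5 FPKM, clf-28 15.5 FPKM), and KCS16 in leaves (21.9 and 16.5 FPKM). The 4 lower were KCS3, from 103 to 42.6 FPKM, KCS14, from 8.92 to 3.62, KCS13, from 17.9 to 7.94, and KCS5, from 37.9 to 17.7. The genotype difference in siliques departed from that in other organs for KCS16 and KCS17 (adjusted p = 0.0278 and 0.00891 in limma). Of 18 relatives tested, 2 passed as higher and 0 as lower, where 4.11% of all tested genes passed as higher and 2.88% as lower. Of the 5 other sucrose synthases, 4 were measured in siliques and 1 was at least 2-fold higher, where 11.4% of all measured genes were. That was SUS3, with 2.25 FPKM for wt and 21.5 FPKM for clf-28, and 0 of 4 tested passed in limma. SUS1 had no usable value in wt siliques.

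DGAT1, the main enzyme of the last step of oil assembly in seeds, was higher in clf-28 in leaves, flowers and siliques, and close to equal in roots, where the sign of its ratio turned with quantile scaling. It lies on chromosome 2 (8426117 to 8429853). For the wild type and then the mutant, DGAT1 stood at 34.3 and 35.3 FPKM (roots), 6.01 and 14.0 (leaves), 7.69 and 14.0 (flowers) and 11.0 and 45.7 (siliques). The roots of both genotypes and the siliques of clf-28 are the high libraries, and wt leaves and wt flowers the low ones. Its log2 ratio was 0.04 for roots (-0.00025 with quantile scaling), 1.1 for leaves, 0.79 for flowers and 1.95 for siliques, and the authors' intervals overlapped in each organ. DGAT1 was the only one of the 8 genes that was at least 2-fold higher in leaves, where 5.45% of measured genes were so and 1.43% at least 2-fold lower. There it was at 0.97 with quantile scaling and 0.79 with a pseudocount of 5.

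DGAT2 and PDAT1, the other routes to the last acyl chain, were under 2-fold in each organ. DGAT2 (chromosome 3, 19110596 to 19112760) had 44.1 and 37.4 FPKM (roots, wild type first), 22.7 and 22.8 (leaves), 22.1 and 19.3 (flowers) and 23.8 and 31.7 (siliques). Roots were the high libraries of both genotypes, and the log2 ratio in siliques was 0.4. PDAT1 (chromosome 5, 4392937 to 4397541) had 21.5 and 17.5 FPKM (roots, wild type first), 26.1 and 26.7 (leaves), 21.8 and 21.4 (flowers) and 17.4 and 10.8 (siliques). It was the only member with a negative ratio in siliques, at -0.63, which is under 2-fold.

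Ratios within a library do not change when each library is rescaled by 1 factor, but they can change with quantile scaling. DGAT1 transcript per PDAT1 transcript, both in FPKM, was 1.59 in wt roots, 0.23 in wt leaves, 0.35 in wt flowers and 0.64 in wt siliques. In clf-28 it was 2.01, 0.52, 0.66 and 4.22 in the same order of organs. The ratio was higher in clf-28 in each organ, and the clf-28 silique library was the highest of the 8. DGAT1 per DGAT2 ran from 0.26 in wt leaves to 0.94 in clf-28 roots over 7 libraries, and was 1.44 in clf-28 siliques, the only library in which DGAT1 was above DGAT2.

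**Figure D3:**
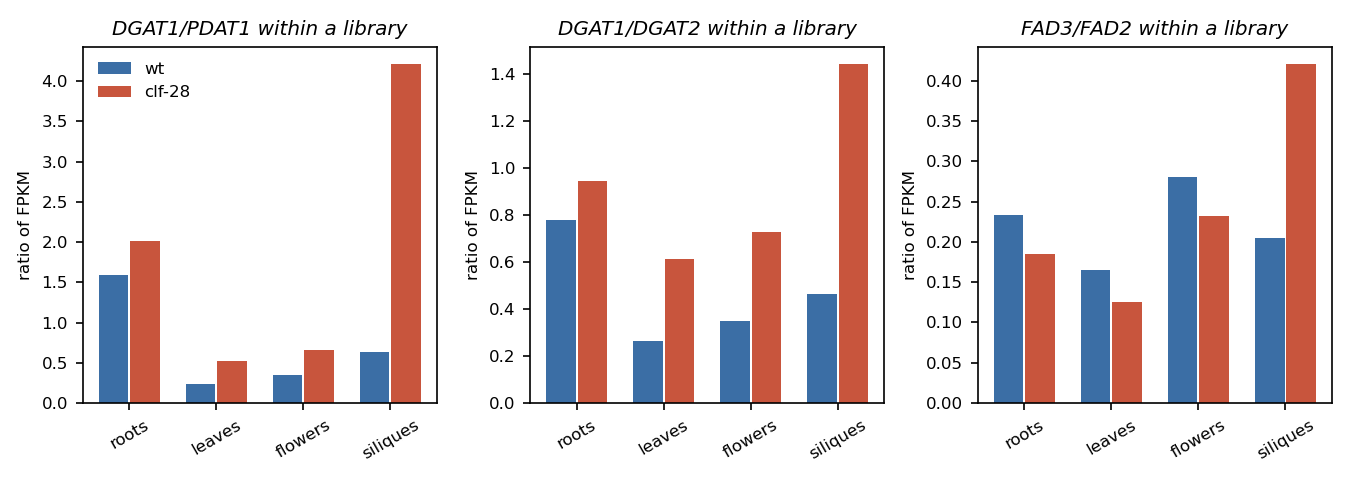
Ratio of the FPKM of 2 genes within each library (vertical axes, from 0) for DGAT1 to PDAT1, DGAT1 to DGAT2 and FAD3 to FAD2, in wt (blue) and clf-28 (red), 1 library per bar and no error bars. The tallest bar of each panel is clf-28 siliques, at 4.22, 1.44 and 0.42.

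A further 10 genes act in acyl transfer to glycerol and in exchange with phosphatidylcholine, and all 10 were measured in siliques. Of these, 2 were at least 2-fold higher in clf-28 and 0 lower, with a median log2 ratio of 0.61. Over all genes measured in siliques, 11.4% were at least 2-fold higher and 8% lower. PDAT2, a relative of PDAT1 expressed in seeds, had 0.13 FPKM for wt and 3.89 for clf-28, and PAH1, a phosphatidate phosphatase that yields diacylglycerol, at 9.47 and 23.1. PDAT2 was under 0.1 FPKM in the libraries of the other organs and passed the filter only through clf-28 siliques. In limma, 4.11% of all tested genes were called higher and 2.88% lower in the test of the genotype difference in siliques against that elsewhere. Of the 10 genes, 1 was called. It was PDAT2 (difference 2.09), and this call, with its spread from values near 0, is given as a description. In roots and in leaves, 0 of 9 measured genes were past 2-fold in either direction. Of all measured genes, 5.55% were higher and 1.22% lower in roots, and 5.45% and 1.43% in leaves. The shares for flowers were 1.51% and 1.04%. In flowers 1 of 9 was higher and 0 lower: DGAT3, a soluble acyltransferase, with 50.6 FPKM for wt and 147 for clf-28 (named after its values were seen).

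FAD2 was the most abundant of the 8 transcripts in each library. It lies on chromosome 3 (3860251 to 3863250). FAD2 had 619 and 567 FPKM (roots, wild type first), 422 and 488 (leaves), 511 and 657 (flowers) and 573 and 934 (siliques). It ranked between 42nd (clf-28 siliques) and 164th (wt leaves) of all loci in a library. The log2 ratio in siliques was 0.7, under 2-fold, and the 8 values lay within a 2.21-fold range.

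FAD3 and ROD1 were at least 2-fold higher in clf-28 siliques. FAD3 had 145 and 105 FPKM (roots, wild type first), 69.9 and 60.9 (leaves), 143 and 153 (flowers) and 117 and 393 (siliques). The clf-28 silique library stood apart from the 7 others, which did not exceed 153, and the log2 ratio there was 1.74. ROD1 had 31.3 and 30.2 FPKM (roots, wild type first), 20.3 and 14.9 (leaves), 26.9 and 26.8 (flowers) and 20.4 and 42.1 (siliques). Its log2 ratio in siliques was 1.01, at the edge of the size rule: just outside stood FAD2 at 0.7, and ROD1 itself was at 0.98 with libraries rescaled by the median of ratios, 0.97 with quantile scaling and 0.89 with a pseudocount of 5. For both genes the intervals overlapped in each organ.

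FAD3 per FAD2 transcript, a ratio of FPKM, was 0.23 and 0.18 for roots (wild type first), 0.17 and 0.12 for leaves, 0.28 and 0.23 for flowers, and 0.20 and 0.42 for siliques. In siliques the ratio was higher in clf-28, and in the 3 other organs it was lower.

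Genes that supply the acyl chains, by export from the plastid, activation, elongation or plastid desaturation, numbered 16 with a row of their own, all measured in siliques. Their median log2 ratio there was -0.30. Of the 16, 2 were at least 2-fold higher in clf-28 and 0 lower, near the 11.4% higher and 8% lower of all measured genes. The 2 were the thioesterase gene FATA1, which releases oleic acid from the plastid carrier, from 20.1 to 47.4 FPKM, and SSI2, the desaturase that makes oleic acid, from 64.9 to 135. In the limma test of the genotype difference in siliques against that elsewhere, 4.11% of all tested genes passed as higher and 2.88% as lower. Of the 16 genes, 3 passed as higher and 0 as lower. They were FATA1 at 1.41 and SSI2 at 1.51 (adjusted p = 0.0275 and 0.0244 in limma), and FATA2. In roots 1 of the 16 was at least 2-fold higher in clf-28, the plastid desaturase FAD7, from 17.1 to 49.8 FPKM. Of the members, 0 of 7 were past 2-fold in roots, where 5.55% of all measured genes were at least 2-fold higher and 1.22% lower. In flowers 0 of 6 measured members were past 2-fold, against 1.51% of genes higher and 1.04% lower, and the largest ratio was that of DGAT1.

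The clf-28 effect over the 4 organs was tested in limma with organ as a block and 3 residual degrees of freedom. The mean log2 differences were 1.81 for SUS2 (SE 1.38), 1.64 for FAE1 (SE 1.27) and 0.97 for DGAT1 (SE 0.32), and adjusted p in limma was 0.582, 0.585 and 0.415. DGAT1 had the smallest p of the 8 genes (unadjusted p = 0.0282 in limma). FAD3 and FAD2 stood at 0.29 each (SE 0.39 and 0.21), ROD1 at 0.13 (SE 0.25), DGAT2 at -0.0045 (SE 0.13) and PDAT1 at -0.23 (SE 0.14). Of all 24078 genes 0 passed an adjusted p of 0.05 in limma (0% in each direction), while the unadjusted p was under 0.05 for 11.8% of them (1323 with a higher and 1516 with a lower mean in clf-28, and 1097 and 1937 with quantile scaling). Without siliques the mean for FAD3 was -0.19 and that for ROD1 -0.16, and that for SUS2 was 0.05.

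Siliques were also set against the mean of roots, leaves and flowers, with the 2 genotypes as the only repeats of an organ. PDAT1 was lower in siliques, by -0.66 on the log2 scale (SE 0.16, adjusted p = 0.0358 in limma), and 16.6% of all tested genes passed as lower (44.3% of genes had an unadjusted p under 0.05 in either direction). Its 2 silique libraries, at 17.4 and 10.8 FPKM, were below the 6 others, which ran from 17.5 to 26.7. The call was lost without a filter on low values (adjusted p = 0.0502 in limma). Without the clf-28 silique library the size for PDAT1 was -0.39, from 1 silique library, which cannot check the call. As higher in siliques, 0 of the 8 passed, where 13.2% of all genes did. SUS2 stood at 3.73 (SE 1.59), FAE1 at 3.67 (SE 1.47) and FAD3 at 1.01 (SE 0.45), with adjusted p in limma of 0.138, 0.121 and 0.153. With the wt silique library left out, siliques were 1 library for every gene, so only the sizes are given. They were 7.27 for SUS2, 6.94 for FAE1 (above values near 0), 1.98 for FAD3, 0.84 for ROD1 and -0.93 for PDAT1. With the clf-28 silique library left out, SUS2 stood at 0.2 and FAD3 at 0.05.

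Within each library FAD2 was first by FPKM and FAD3 second. FAE1 was last and SUS2 next to last in 7 libraries, and in clf-28 siliques SUS2 and then FAE1 followed FAD3, and PDAT1 was last. Across libraries, the level of SUS2 in clf-28 siliques was the only one whose interval was separate from the next in order. For the 7 other genes, neighbours in the order did not differ beyond the authors' intervals.

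Several regulators of seed oil were also higher in clf-28 siliques. Over all genes measured in siliques, 11.4% were at least 2-fold higher in clf-28 and 8% lower. Of 14 regulators of seed oil, 12 had a row of their own and were measured in siliques. Of these, 7 were at least 2-fold higher in clf-28 with 0 lower (median log2 ratio 1.3). This list too was chosen with earlier results of these data known, so the count is a description. The largest ratios were those of 4 activators of seed maturation: BZIP67, from 0.44 to 51.1 FPKM, ABI3, from 1.09 to 41.9, FUS3, from 2.98 to 78.8, and L1L, from 3.29 to 74.0. WRI1, which activates fatty acid synthesis, had 14.9 and 52.9 FPKM. LEC1 and LEC2, which act early in the embryo, were at 19.3 and 23.9 and at 2.07 and 3.34 FPKM (these 3 were named after their values were seen). In the limma test of the genotype difference in siliques against that elsewhere, 4.11% of all tested genes were called higher and 2.88% lower. Of the 12 regulators, 6 were called higher and 0 lower. Of the 6, ABI3, L1L, BZIP67 and MYB118 were at most at 0.182 FPKM in the 6 libraries that set the spread, and BZIP67 passed the filter only through clf-28 siliques, so the count is a description. WRI1, between 4.29 and 12.0 FPKM in those libraries, differed by 1.91 (adjusted p = 0.0353 in limma). In roots, leaves and flowers, 0 of the 4, 4 and 6 measured regulators were past 2-fold in either direction.

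Among markers of the developing seed, the 5 storage and oil body genes that were usable in all libraries summed to 8.19 FPKM in wt siliques and 17676 in clf-28 siliques. Each was at least 2-fold higher, such as the oleosin gene OLE1, from 1.74 to 4714 FPKM. The 4 seed coat genes with a row of their own were present in both silique libraries, 1 at least 2-fold higher in clf-28 and 3 lower. BAN, TT2 and TT12, of tannin synthesis in the young seed coat, were at 582 and 236, 28.5 and 9.11, and 50.1 and 11.8 FPKM in wt and clf-28. TT10, which acts in browning of the seed coat, was at 36.8 and 435. The 4 green tissue markers usable in all libraries summed to 10353 FPKM in wt siliques and 2747 in clf-28 siliques. The part of these markers in the results for the 8 genes was not tested. Since each genotype has 1 silique library and silique age is not given, seed stage and genotype cannot be told apart, nor can more seed cells be told from more RNA of these genes per cell.

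**Figure D4:**
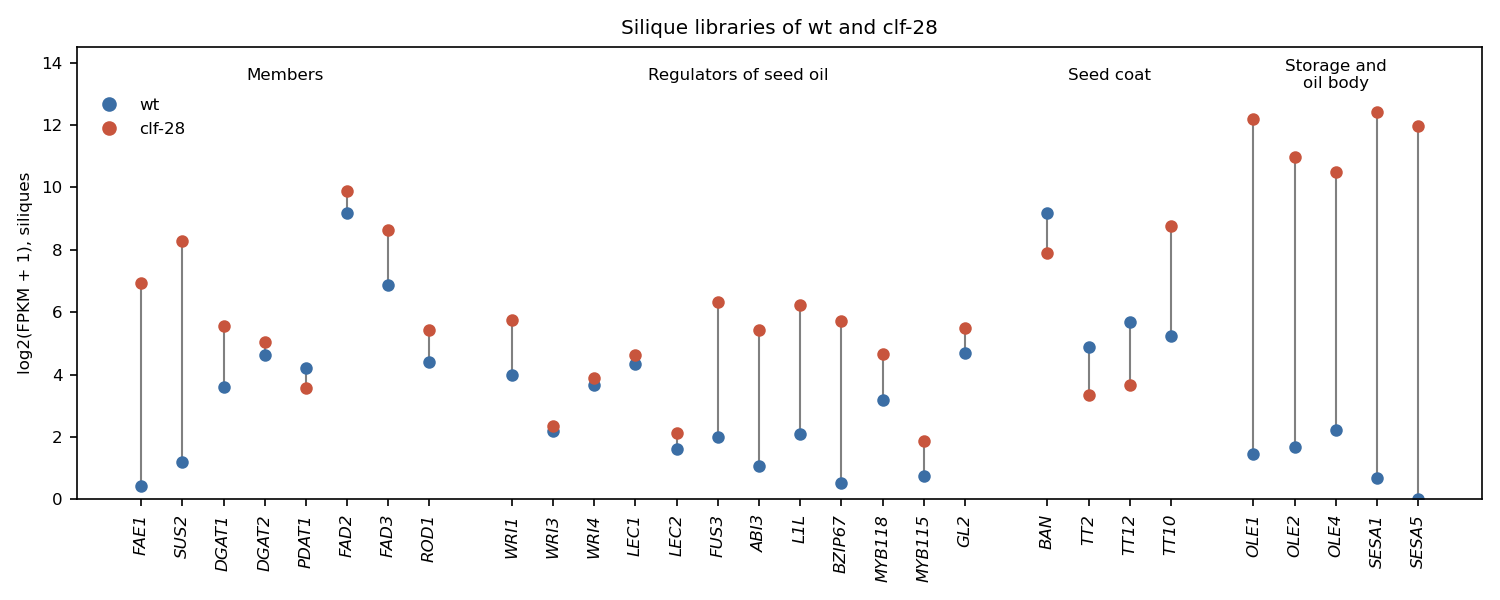
Silique libraries of wt (blue) and clf-28 (red), as log2(FPKM + 1) on the vertical axis, for the 8 seed oil genes, 12 regulators, 4 seed coat genes and the 5 storage and oil body genes usable in both; grey lines join the 2 values of a gene. SUS2 joins 1.27 FPKM in wt to 312 in clf-28 and OLE1 1.74 to 4714, whereas LEC1 joins 19.3 to 23.9.

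The genes whose profile over the 8 libraries was most like that of a member were found by Pearson's r of log2(FPKM + 1) among 14893 genes that reached 10 FPKM in a library. For FAE1 they were AT5G05020, IPT6 and AT1G62220 (r = 0.99997, 0.99996 and 0.99992), which stood at 103, 25.8 and 554 FPKM in clf-28 siliques and at most at 0.575 in each other library. For SUS2 they were AT1G12064, the storage albumin gene SESA1 and AT4G31830, at r = 0.999 each, with SESA1 at 5464 FPKM in clf-28 siliques. For these 2 members the likeness rests on a single library. The profiles most like the others were those of AT5G38895, GDAP1 and RGS1 for DGAT1 (r = 0.985, 0.971 and 0.970), GLB3, AT3G47965 and AT5G10580 for DGAT2 (0.985, 0.984 and 0.981), and AT5G24165, AT1G27210 and NPH3 for PDAT1 (0.996, 0.973 and 0.967). For FAD2 they were HAOX1, AT1G68220 and AT1G13570 (0.975, 0.965 and 0.965), for FAD3 AT2G01210, SEC3A and ULP1D (0.986, 0.984 and 0.982), and for ROD1 AT4G10270, AT3G10040 and CIB5 (0.984, 0.981 and 0.970). Among the members, r between FAE1 and SUS2 was 0.998 over 8 libraries and 0.346 without clf-28 siliques, r between FAD2 and FAD3 was 0.924 and 0.783, and r between DGAT1 and DGAT2 was 0.802 and 0.835. PDAT1 had a negative r with each of the 7 other members, from -0.874 with FAD2 to -0.376 with DGAT2. All these values share the same 8 libraries and are descriptions.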

How the data were processed

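TopHat, Cufflinks and the TAIR10 genome are named in the submitters' processing notes, without versions. Per the file headers, the deposited table gives an FPKM, a lower and an upper FPKM bound and a status for each locus and library; these values were used as deposited by the authors. The status column, of unit other per the file headers, is the authors' flag for usable, too few reads, too many reads or failed. Read depth is unknown, and neither the authors' scaling between libraries nor their treatment of reads that match several genes is given in the sources used here. No replicates exist within a group, so p values rest only on how far the difference between genotypes varied from organ to organ.

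Values were transformed as log2(FPKM + 1). Linear models were fitted with limma 3.58.1 under R 4.3.3, letting the prior variance follow mean level (trend). They used 24078 genes with usable status in 8 libraries and at least 1 FPKM in 1, with Benjamini-Hochberg adjustment over all of them and a threshold of 0.05. A run on simulated data covered only the genotype effect over the organs, with the same shift in each organ and equal noise. The comparisons of siliques with the other organs were not simulated. Python 3.11.15, pandas 2.3.3, numpy 2.4.6 and matplotlib 3.10.9 served for the rest. The rule for named genes takes all members, list genes past 2-fold in siliques or roots (up to 4 per list, direction and organ), markers, and the 3 profiles most like each member. The members and lists were chosen with earlier results of these data known. Of 112 list genes, 107 had a row of their own. Symbols and annotation are from RefSeq on TAIR10.1, on which 99.8% of 30711 matched loci of chromosomes 1 to 5 lay over the deposited position; sequences were read at RefSeq positions. Alternatives were pseudocounts of 0.1 and 5, 2 rescalings, no filter, no trend, and leaving out organs or silique libraries.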

Additional observations from a re-analysis of the deposited data

Results flagged for a closer look

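For 2 of the 8 genes the difference between clf-28 and wt was flagged as larger in siliques than in the other organs. For SUS2 the spread of the test comes from low values, between 0.71 and 1.39 FPKM in the other organs, and holds no variation between silique samples. The SUS2 call was lost without leaves and without flowers. For FAE1 the difference was 6.53 on the log2 scale, from a ratio of 6.53 in siliques and ratios between -0.0049 and 0.02 in roots, leaves and flowers. Since FAE1 entered the fit only through the clf-28 silique library and is at or near 0 in the other organs, the test of this difference carries no information and its p is not given. For SUS2 it was 7.06 (adjusted p = 0.00377 in limma), from 7.11 in siliques and between -0.11 and 0.13 elsewhere. In both cases 1 library, that of clf-28 siliques, carries the difference, and the storage and oil body markers are high in the same library.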

How the results depend on the processing

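Replicates could not be paired, because each group has 1 library and the labels give no replicate numbers. For the genotype effect organ served as the block, so that the genotypes were compared within organs. Within organs, the count of members at least 2-fold higher in clf-28 leaves went from 1 to 0 with a pseudocount of 5 and with quantile scaling, and the other counts of members stayed within 1.5 times of the main count under the 5 alternatives run. Over the 4 organs, 1 gene passed as higher with a pseudocount of 5 in limma (0 otherwise), and leaving out an organ gave 0 to 0 higher and 0 to 1 lower; means that turned sign ran from -0.139 to 0.0719 for DGAT2 (0.056 without flowers), -0.191 to 0.543 for FAD3 and -0.158 to 0.318 for ROD1 (both lowest without siliques). For siliques against the other organs, members passing as lower went from 1 to 0 without the filter. Leaving out a silique library leaves 1 in siliques, so only sizes are given. They ran from -0.0999 to 1.21 for DGAT1, -0.231 to 0.306 for DGAT2 and -0.326 to 0.844 for ROD1, negative without that of clf-28. For the difference between siliques and the other organs, a pseudocount of 0.1 gave 638 genes higher and 151 lower against 989 and 693. Leaving out an organ gave 0 to 134 higher and 0 to 0 lower genes, and 0 to 2 members higher, with 1 residual degree of freedom. SUS2 passed under the other alternatives run (adjusted p = 0.00132 to 0.014 in limma). Differences ran from 5.65 to 7.73 for SUS2 and 4.58 to 8.1 for FAE1, both lowest with a pseudocount of 5 and highest with 0.1. The causes were not tested. The fits without a trend for the last 2 comparisons were chosen after seeing the data and gave 3113 genes higher and 3962 lower in siliques, and 887 and 503 for the difference. FAE1 had no value over organs without siliques, or for siliques without the clf-28 library, where it missed the filter. Where 1 silique library was left, it was assumed to vary like the other groups. Unknown depth limits statements on low values such as FAE1 in 7 libraries.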

Other observations

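Seed transcripts were also found in wt roots, where they did not include FAE1. The 5 usable storage and oil body markers had root sums of 28.7 FPKM for wt and 1.44 for clf-28. At least 2-fold lower in clf-28 roots were 9 of 9 measured markers of the 11. Of all genes measured in roots, 1.22% were at least 2-fold lower and 5.55% higher. In the same libraries FAE1 was listed at 0 in both, SUS2 was at 1.39 and 1.22 FPKM, and the 4 measured oil regulators had a median log2 ratio of -0.24. In clf-28 siliques the 3 oleosin genes OLE1, OLE2 and OLE4 were at 4714, 2024 and 1445 FPKM, against 122 for FAE1 and 45.7 for DGAT1.

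Oil breakdown genes stayed under the size rule throughout. SDP1, the lipase that starts oil use in the seedling, was at 16.2 FPKM in wt siliques and 27.7 in clf-28 siliques. In any organ, 0 of the 3 genes of this list were past 2-fold. Of all genes measured in siliques, 11.4% were at least 2-fold higher in clf-28 and 8% lower.

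In leaves, 5.45% of all measured genes were at least 2-fold higher in clf-28 and 1.43% lower. Of 16 measured relatives of FAE1, 3 were higher there and 0 lower (chosen after their values were seen). They were KCS2, from 1.04 to 7.73 FPKM, KCS3, from 22.7 to 53.8, and KCS1, from 27.7 to 61.0. In flowers 4 of 18 were lower and 0 higher: KCS13, KCS14, KCS7 and KCS15, the last from 30.5 to 13.9 FPKM. Of all genes measured in flowers, 1.04% were at least 2-fold lower and 1.51% higher.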
